A study of Mus musculus with 6 samples.

Results

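The suppressors of cytokine signalling are a family of 8 genes, Cish and Socs1 to Socs7, and all 8 were found in the table by their symbols, out of 25663 gene IDs. All 8 also had enough counts to be among the 13468 genes tested. Their RNA was measured in neutrophils of C57BL/6 mice, sorted as CD45+CD11b+Ly6G+ cells out of bone marrow and stimulated for 6 hours. The LPS+resveratrol group (n = 3) received lipopolysaccharide (LPS), a bacterial cell wall component, together with resveratrol, a plant polyphenol whose amount the labels write as 25 μmol, and the LPS group (n = 3) received LPS alone. The labels give no modified allele, age, sex or pooling of animals, and both groups were exposed to LPS, so induction of the family by LPS was not analysed here. The design text says that sequencing was done in duplicate, although each group has 3 labelled samples. Whether replicates are separate mice is not stated in the labels, and the p-values therefore speak only of differences between these libraries, whose spread may be technical.

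Cytokine receptors that lack kinase activity of their own signal through Janus kinases (JAKs), which phosphorylate transcription factors of the STAT family. Several SOCS genes are themselves switched on by STATs, and their proteins bind phosphorylated receptors or JAKs through an SH2 domain and recruit a ubiquitin ligase through a carboxy-terminal SOCS box, which closes a negative feedback loop. In neutrophils, SOCS3 is known as the inhibitor that restrains signalling by the receptor for granulocyte colony-stimulating factor (G-CSF), and SOCS1 is known for restraining interferon and LPS responses in myeloid cells.

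Promoters are shown for the 4 of 8 members with a window available here, which are Cish, Socs1, Socs3 and Socs4. They were not chosen by their levels. Socs1, Socs3 and Cish are known as STAT-inducible. Windows of 250 bases before to 50 after the transcription start follow RefSeq (GRCm38.p6). The other members, among them Socs2, another STAT-inducible gene, had no window in the set used for display. Windows on a single chromosome were left out of that set but counted in the shares below, and absence is no statement about RefSeq itself. Capitals mark TTCNNNGAA, the core letters of the site that STAT dimers bind (the same letters on both strands), and a pair of interferon regulatory factor half-sites, GAAA repeated after 2 bases of any kind (or TTTC likewise, for the other strand). 
Cish (chr9:107296409-107296708, + strand): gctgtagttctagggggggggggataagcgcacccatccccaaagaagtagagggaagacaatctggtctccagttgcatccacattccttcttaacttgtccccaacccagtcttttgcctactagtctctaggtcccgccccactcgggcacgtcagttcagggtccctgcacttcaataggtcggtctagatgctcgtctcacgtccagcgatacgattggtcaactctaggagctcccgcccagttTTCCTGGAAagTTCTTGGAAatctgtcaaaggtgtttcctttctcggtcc
Socs1 (chr16:10785487-10785786, - strand): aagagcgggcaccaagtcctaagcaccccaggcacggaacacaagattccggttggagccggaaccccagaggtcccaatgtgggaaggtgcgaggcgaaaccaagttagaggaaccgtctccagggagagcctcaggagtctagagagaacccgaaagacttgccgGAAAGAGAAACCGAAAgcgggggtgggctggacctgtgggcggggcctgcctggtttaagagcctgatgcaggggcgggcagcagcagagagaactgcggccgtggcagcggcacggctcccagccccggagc
Socs3 (chr11:117969317-117969616, - strand): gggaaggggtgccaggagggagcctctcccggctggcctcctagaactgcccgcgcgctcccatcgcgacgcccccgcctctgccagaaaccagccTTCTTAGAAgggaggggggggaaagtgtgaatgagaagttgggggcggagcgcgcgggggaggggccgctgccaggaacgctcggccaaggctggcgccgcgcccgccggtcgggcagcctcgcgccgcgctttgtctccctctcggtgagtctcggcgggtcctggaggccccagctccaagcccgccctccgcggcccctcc
Socs4 (chr14:47276670-47276969, + strand): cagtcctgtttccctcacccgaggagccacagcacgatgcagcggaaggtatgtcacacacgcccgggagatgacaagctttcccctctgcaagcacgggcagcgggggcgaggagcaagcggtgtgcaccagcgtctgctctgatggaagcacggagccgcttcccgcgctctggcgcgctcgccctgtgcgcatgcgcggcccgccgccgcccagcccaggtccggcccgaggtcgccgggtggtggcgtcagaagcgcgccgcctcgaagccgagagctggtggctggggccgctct
The Cish window held 2 matches to the STAT letters and the Socs3 window held 1. The Socs1 window held 2 overlapping matches to the interferon regulatory factor letters, and the Socs4 window held neither motif. Among all 32851 promoter windows of this length, 8.3% held at least 1 match to the STAT letters and 0.457% held at least 2. For the interferon regulatory factor letters, 3.44% held at least 1 match and 0.225% at least 2, with overlapping matches counted. These matches describe the letters in the window and do not show binding.

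With resveratrol, none of the 8 SOCS family transcripts passed the test over all 6 libraries. The range of log2 fold changes was from −0.56 for Socs1 to 0.30 for Socs4. The test was edgeR's quasi-likelihood test with an adjusted p under 0.05 (Benjamini-Hochberg), which called 1.83% of all tested genes. DESeq2 also called 0 of the 7 members to which it gave an adjusted p (Socs2 had none) and limma-voom 0 of the 8, while they called 6.27% and 1.78% of all tested genes. An unadjusted p under 0.05 was found for 1 member, Socs4, with each of edgeR, DESeq2 and limma-voom, and for 19.9%, 18.5% and 19.8% of all tested genes. The library LPS+resveratrol replicate 1 stood apart from the others, and without it Socs4 was the single member called, with a rise of 1.16-fold, while 25.4% of all tested genes were called and 12.1% were called higher. Socs3, the most abundant member, then differed by a log2 fold change of 0.04 with a 95% interval from −0.06 to 0.14.

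Total counts were between 18141352 and 19928153 per library. LPS+resveratrol replicate 1 correlated with the other libraries at 0.964 at most over log2 CPM (counts scaled to a common library total) of tested genes, against at least 0.99 for the best match of each other library. Summed CPM of 14 neutrophil markers was 67590 in that library and 101500 and 103300 in LPS+resveratrol replicates 2 and 3, against 83870 to 91130 in the LPS libraries. All 14 neutrophil markers had enough counts to be tested. Summed CPM of 10 monocyte and macrophage markers lay between 2491 and 2733 in the LPS+resveratrol libraries and between 2543 and 2588 in the LPS libraries, and that of dendritic cell markers likewise overlapped between the groups. Summed CPM of 4 erythroid markers was 8.75 in LPS+resveratrol replicate 1 and 51.8 and 77.6 in replicates 2 and 3, against 58.8 to 72.3 in the LPS libraries. The groups did not overlap for the other 5 lists, which were lower with LPS+resveratrol. Of all tested genes, taken singly, 15.9% were lower without overlap. Summed CPM was 29.2 to 60.1 with LPS+resveratrol and 63.2 to 71.1 with LPS for eosinophil markers, and 51.0 to 59.1 with LPS+resveratrol and 60.7 to 65.0 with LPS for basophil and mast cell markers. It was 52.6 to 104.1 with LPS+resveratrol and 105.4 to 112.8 with LPS for B cell markers, and 4.16 to 4.996 with LPS+resveratrol and 5.97 to 7.08 with LPS for T and NK cell markers. For megakaryocyte markers it was 8.31 to 15.4 with LPS+resveratrol and 16.0 to 18.6 with LPS. Except for T and NK cell markers, the low end of these LPS+resveratrol ranges was replicate 1. Replicates 2 and 3 were at 60.1 and 58.3 for eosinophil markers and 56.5 and 59.1 for basophil and mast cell markers. They were at 104.1 and 96.45 for B cell markers and 15.4 and 11.9 for megakaryocyte markers. No listed marker of any cell type was at 0 in all libraries, and the part of other cells in the results was not tested. In bulk RNA, fewer cells of a type and less RNA per cell cannot be told apart.

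**Figure D1:**
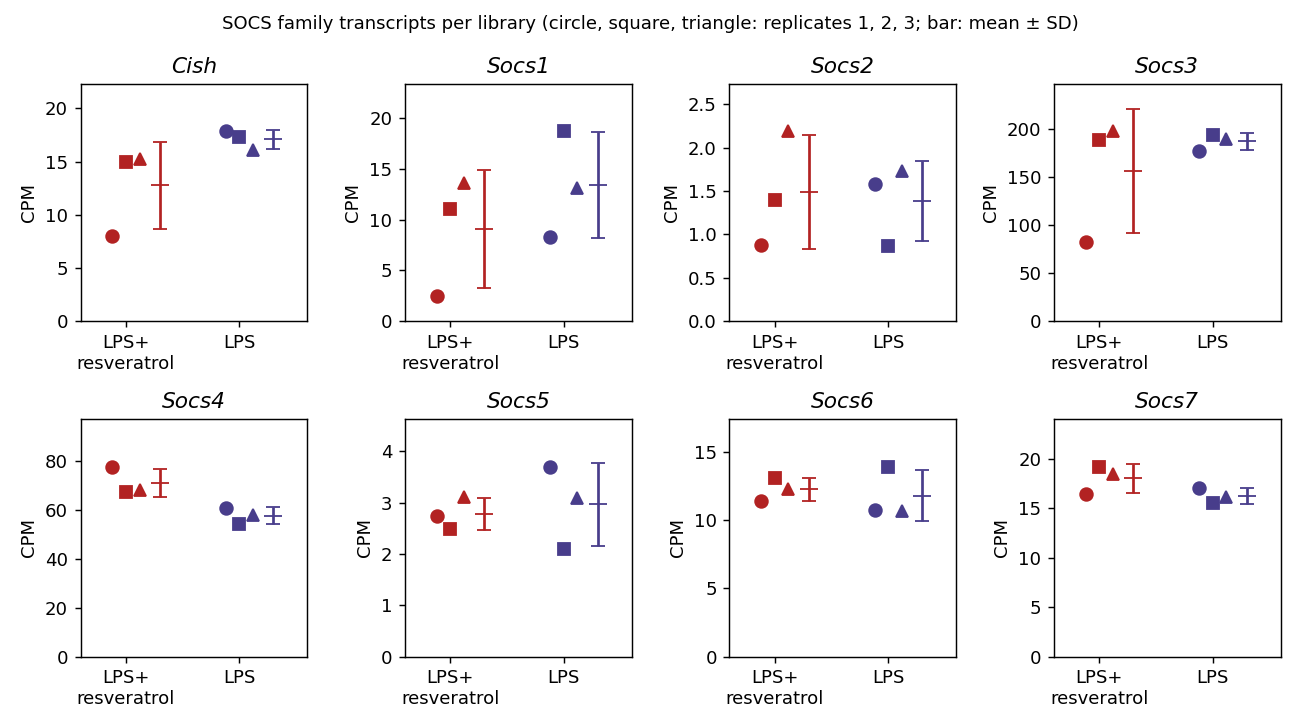
Level of each SOCS family transcript in CPM (y axis, from 0, a scale of its own in each panel) in 3 LPS+resveratrol libraries (red, left) and 3 LPS libraries (blue, right), with the mean ± SD as a bar beside the points. LPS+resveratrol replicate 1 (red circle) was the lowest of the 6 libraries for Cish, Socs1 and Socs3 and the highest for Socs4.

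Levels were compared between members as CPM per kilobase of transcript, and they spanned a wide range. The length was the median over annotated protein-coding transcripts, and which of these are expressed here was not measured, so the order is approximate. Socs3 stood at 61.2 ± 25.3 CPM per kilobase in the LPS+resveratrol group and 73.3 ± 3.38 in the LPS group (SD, n = 3 each). Socs4 followed at 19.1 ± 1.58 CPM per kilobase with LPS+resveratrol and 15.6 ± 0.898 with LPS. Below them came Socs6, Cish, Socs1, Socs7, Socs2 and Socs5, in the order of their mean over 6 libraries, with Socs5 at 0.987 ± 0.112 CPM per kilobase with LPS+resveratrol and 1.05 ± 0.287 with LPS. The ranges of Socs3 and Socs4 over 6 libraries overlapped neither each other nor, for Socs4, those of Socs6. Each of the other 5 neighbouring pairs in this order overlapped in range, although Socs7 was above Socs2 in 6 of 6 libraries and the higher member of the other pairs in 4 or 5 of 6. Without LPS+resveratrol replicate 1 the ranges of Socs1 and Socs7 no longer overlapped. Of the family total per kilobase, Socs3 made up 47.9%, 65.3% and 65.3% in LPS+resveratrol replicates 1, 2 and 3, against 65.4%, 66.3% and 66.8% in LPS replicates 1, 2 and 3. Socs4 made up 31.2% in LPS+resveratrol replicate 1 and between 12.7% and 16.0% in the other 5 libraries.

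Among the STAT-inducible members, Socs3 (ENSMUSG00000053113), the inhibitor of receptors that use gp130 and of the G-CSF receptor, was at 82.0, 189.1 and 197.8 CPM in LPS+resveratrol replicates 1, 2 and 3, against 177.5, 194.0 and 189.9 CPM in LPS replicates 1, 2 and 3. A single LPS+resveratrol library lay far below the other 5, and the groups overlapped. Over 6 libraries it differed by −0.26 ± 0.302 on the log2 scale (SE; adjusted p = 0.653 by edgeR) with a 95% interval from −0.97 to 0.45. Without LPS+resveratrol replicate 1 the sign turned and the interval narrowed to between 0.959-fold and 1.10-fold of the LPS level (adjusted p = 0.621 by edgeR). Counting error alone was 1.84% in the LPS+resveratrol group and 1.69% in the LPS group at these depths, against a coefficient of variation between libraries of 41.3% and 4.61%.

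Cish (ENSMUSG00000032578), which STAT5 induces downstream of GM-CSF and interleukin 3 type receptors and which binds such receptors, was at 8.04, 15.0 and 15.2 CPM in LPS+resveratrol replicates 1, 2 and 3. In LPS replicates 1, 2 and 3 it was at 17.9, 17.3 and 16.1 CPM. All 3 LPS+resveratrol libraries were below all 3 LPS libraries, as were 15.9% of all tested genes, and 24.5% were so without LPS+resveratrol replicate 1. Its log2 fold change of −0.42 ± 0.24 (SE; adjusted p = 0.368 by edgeR) did not pass, nor did −0.18 ± 0.102 without LPS+resveratrol replicate 1 (adjusted p = 0.198 by edgeR), where the interval was from 0.763-fold to 1.02-fold. Antisense gene models Gm17041 and Gm17040 cover 7.46% and 4.07% of the exon bases of Cish in GENCODE M21. Gm17040 had 3 counts at most in any library, while Gm17041 was not among the gene IDs with counts. Without knowledge of strand, reads of Cish and these models cannot be separated.

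Socs1 (ENSMUSG00000038037), which inhibits JAKs directly and is induced by interferons, was at 2.52, 11.0 and 13.6 CPM in LPS+resveratrol replicates 1, 2 and 3, against 8.28, 18.7 and 13.1 CPM in LPS replicates 1, 2 and 3. It was the most variable member, with a coefficient of variation of 64.1% in the LPS+resveratrol group and 39.0% in the LPS group, where counting error alone was 7.62% and 6.32%. The groups overlapped with and without LPS+resveratrol replicate 1. Its log2 fold change was −0.56 ± 0.557 over 6 libraries (SE; adjusted p = 0.595 by edgeR) and −0.13 ± 0.427 over 5 (adjusted p = 0.881 by edgeR). The edgeR interval over 5 libraries ran from 0.368-fold to 2.28-fold, while limma-voom gave −0.06 with a smaller SE of 0.215 for the same libraries (adjusted p = 0.881).

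Socs2 (ENSMUSG00000020027), known as the regulator of growth hormone signalling and a target of STAT5, was scarce, with 16, 26 and 43 counts in LPS+resveratrol replicates 1, 2 and 3 and 29, 16 and 33 counts in LPS replicates 1, 2 and 3. The groups overlapped, and counting error of 18.8% and 19.6% lay under a coefficient of variation of 44.5% and 33.3% in the LPS+resveratrol and LPS groups. Its log2 fold change was 0.10 ± 0.41 (SE; adjusted p = 0.905 by edgeR), and its 95% interval ran from 0.552-fold to 2.09-fold.

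Socs4 (ENSMUSG00000048379), which with Socs5 forms the branch of the family linked to degradation of the EGF receptor, was at 77.7, 67.1 and 68.0 CPM in LPS+resveratrol replicates 1, 2 and 3, against 60.8, 54.2 and 58.0 CPM in LPS replicates 1, 2 and 3. Every LPS+resveratrol library lay above every LPS library, as for 17.3% of all tested genes, and LPS+resveratrol replicate 1 was the highest. The log2 fold change of 0.30 ± 0.11 did not pass over 6 libraries (SE; adjusted p = 0.203 by edgeR). Without LPS+resveratrol replicate 1 it was 0.22 ± 0.068 and passed (adjusted p = 0.0139 by edgeR), as it did in the same 5 libraries with DESeq2 (adjusted p = 0.028) and limma-voom (adjusted p = 0.0206), which called 9.16% and 11.3% of all tested genes higher. It also passed over 6 libraries when limma-voom weighted each library by its quality (adjusted p = 0.0293), where 10.7% of tested genes were called higher. That fit gave LPS+resveratrol replicate 1 a weight of 0.0786, against 1.49 to 1.75 for the others. It is therefore close to leaving this library out. The 95% interval of the rise, by edgeR over 5 libraries, was from 1.06-fold to 1.28-fold. With offsets for transcript length and GC content the log2 fold change was 0.15 over 6 libraries (adjusted p = 0.414 by edgeR) and 0.21 over 5 (adjusted p = 0.0193 by edgeR), where 13.5% of tested genes were called higher.

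Socs5, Socs6 and Socs7 did not pass over 6 or 5 libraries. Socs7 (ENSMUSG00000038485), a member with roles in insulin signalling in mouse, was at 16.4, 19.2 and 18.5 CPM in LPS+resveratrol replicates 1, 2 and 3, against 17.1, 15.5 and 16.2 CPM in LPS replicates 1, 2 and 3. Replicates 2 and 3 of the LPS+resveratrol group lay above all LPS libraries, as for 25.4% of tested genes, and replicate 1 did not. Its log2 fold change was 0.15 ± 0.119 over 6 libraries (SE; adjusted p = 0.501 by edgeR) and 0.21 ± 0.0984 over 5 (adjusted p = 0.125 by edgeR). Socs6 (ENSMUSG00000056153), which acts on receptor tyrosine kinases such as KIT, was at 11.4, 13.1 and 12.3 CPM in LPS+resveratrol replicates 1, 2 and 3, against 10.7, 13.9 and 10.6 CPM in LPS replicates 1, 2 and 3, with overlapping groups and a log2 fold change of 0.06 (adjusted p = 0.854 by edgeR). Socs5 (ENSMUSG00000037104) was at 2.74, 2.48 and 3.11 CPM in LPS+resveratrol replicates 1, 2 and 3, against 3.70, 2.10 and 3.09 CPM in LPS replicates 1, 2 and 3, a log2 fold change of −0.09 (adjusted p = 0.855 by edgeR).

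**Figure D2:**
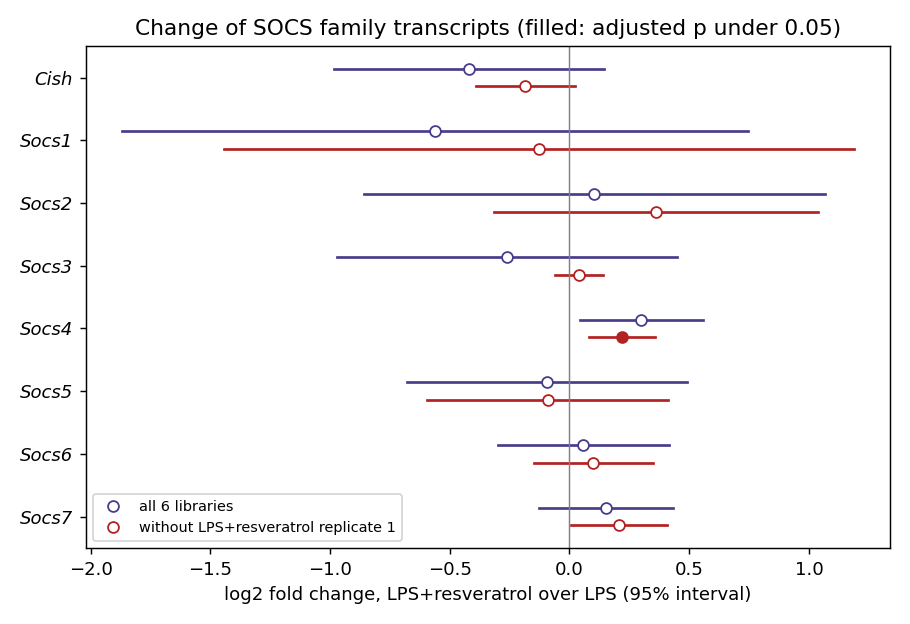
Log2 fold change of LPS+resveratrol over LPS (x axis) with its 95% interval for each SOCS family member (y axis), over 6 libraries (blue) and without LPS+resveratrol replicate 1 (red), where a filled point has an adjusted p under 0.05. Socs4 over 5 libraries is the single filled point, and the Socs3 interval is the narrowest over 5 libraries.

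The place of LPS+resveratrol replicate 1 differed between members. Set against the mean log2 CPM of replicates 2 and 3, it lay 2.24 below them for Socs1 (deviation −2.24), with deviations of −1.24 for Socs3, −0.92 for Socs2 and −0.90 for Cish. The Socs2 value rests on 16, 26 and 43 counts in LPS+resveratrol replicates 1, 2 and 3, and LPS replicate 2 also had 16. The other 4 members had deviations of −0.20 (Socs7), −0.15 (Socs6), −0.02 (Socs5) and 0.20 (Socs4). On this scale, which adds a prior count of 2 before the logarithm, Socs1 and Socs3 were at least 2-fold lower in this library. So were 10.45% of all tested genes. In CPM without that addition, Socs2 stood at 0.487 of the mean of replicates 2 and 3. Of 21 other genes that STATs are known to induce, 13 lay below and 8 above replicates 2 and 3 (median deviation −0.29, against 0.03 over all tested genes), with Il1rn at 0.52. Socs1, Socs3 and Cish have median transcripts with a GC content of 58.6%, 58.7% and 56.4%, the highest of the family. Socs2 has the shortest median length, 948 bases over 7 annotated transcripts, and Socs4 the lowest GC content, 41.4%. Over all tested genes the same library had a median deviation of −0.39 for a GC content over 55% and of 0.28 under 45%, and of −0.34 for transcripts under 1 kb and 0.36 for those over 4 kb. Socs1, Socs3 and Cish fall among 951 tested genes of 2 to 4 kb with a GC content over 55%, for which the median deviation was −0.25 and 9.15% lay at least 2-fold lower in this library. Socs2 falls among 953 genes under 1 kb with a GC content of 50 to 55%, for which the median deviation was −0.42 and 27.3% lay at least 2-fold lower. Socs4 falls among 1166 genes of 2 to 4 kb and under 45%, for which the median deviation was 0.30. Socs7 falls among 500 genes over 4 kb with a GC content of 50 to 55%, with a median deviation of 0.33. For Socs6 (671 genes of 1 to 2 kb, under 45%) it was 0.13, and for Socs5 (1203 genes of 2 to 4 kb, 50 to 55%) 0.11. Each of the 8 members lay below the median of its own class of genes. Whether length and GC content account for the deviations was not tested. Offsets for length and GC content moved the log2 fold change over 6 libraries to −0.13 for Socs3, −0.32 for Cish and −0.46 for Socs1, and 0 of the 8 members was called (edgeR; 3.89% of all tested genes were).

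**Figure D3:**
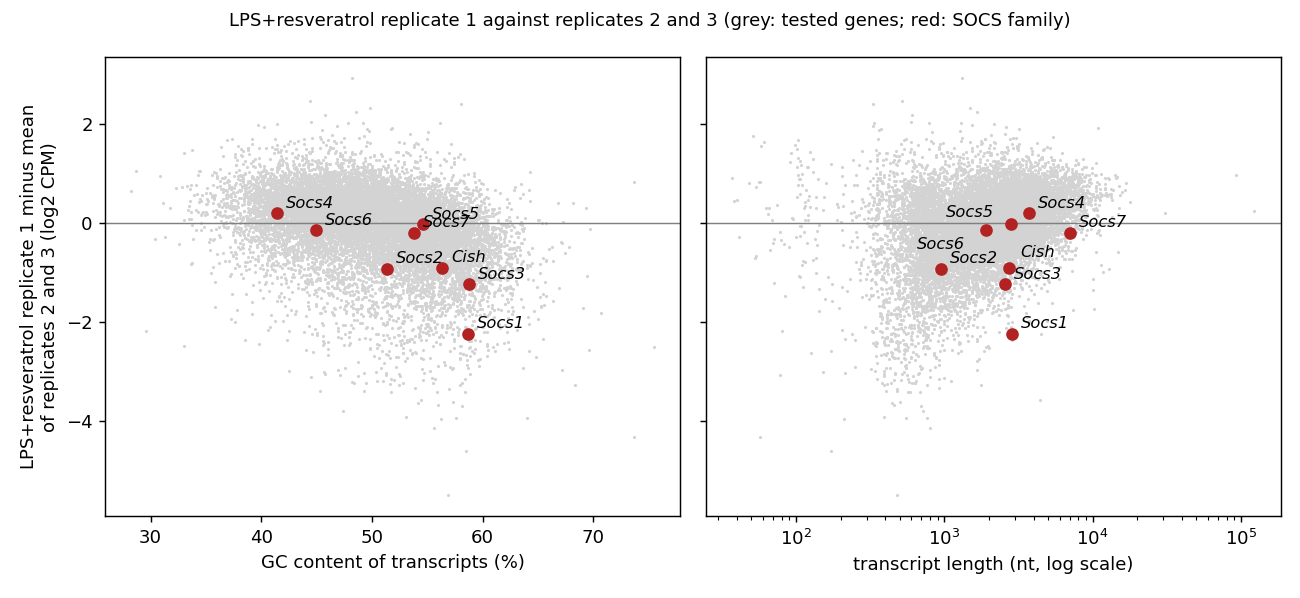
Log2 CPM of LPS+resveratrol replicate 1 minus the mean of replicates 2 and 3 (y axis) against the GC content in percent (left) and the length in bases on a log scale (right) of each gene's transcripts, for tested genes (grey) and the SOCS family (red). Socs1, Socs3, Cish and Socs2 lie between −2.24 and −0.90, and the other 4 members lie between −0.20 and 0.20.

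Across the 6 libraries the genes with profiles nearest to the 3 members with the largest log2 fold changes were found by the root mean square difference of centred log2 CPM, among genes at or above the median level. Nearest to Socs1 were Emc6, of an endoplasmic reticulum membrane complex, Id1, an inhibitor of helix-loop-helix factors, and Rplp2, a ribosomal protein gene, at 0.203, 0.227 and 0.23. Their deviations in LPS+resveratrol replicate 1 were −2.19, −2.08 and −2.22, close to the −2.24 of Socs1. Nearest to Cish were the splicing factor gene Sf3b6 at 0.038, Pdzk1ip1 at 0.0406 and the G protein subunit gene Gngt2 at 0.0474, with deviations of −0.85, −0.96 and −0.93. Nearest to Socs4 were the translation factor gene Eif2s3y at 0.0234, the splicing kinase gene Clk1 at 0.0235 and the p38 kinase gene Mapk14 at 0.0268. These 3 had log2 fold changes of 0.23, 0.19 and 0.18 without LPS+resveratrol replicate 1, beside 0.22 for Socs4. For Socs1 and Cish the lowest value of the profile was in LPS+resveratrol replicate 1, and the likeness is given as a description. The genes were picked by these same libraries, so near deviations and fold changes follow from the choice.

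Around the family, ligands that act through JAKs and STATs or induce SOCS genes moved in both directions. Of 16 listed ligands 11 were tested, of which 1 rose, 3 fell and 7 did not pass over 6 libraries (median log2 fold change −0.25, against 0.00 over all tested genes). Csf3, which encodes G-CSF, a ligand whose signal SOCS3 restrains, was at 1.31, 2.70 and 2.29 CPM in LPS+resveratrol replicates 1, 2 and 3, against 11.8 CPM in each LPS library. Its log2 fold change was −2.48 ± 0.248 (SE; adjusted p = 0.0191 by edgeR), and the groups lay far apart. Il10, the anti-inflammatory cytokine that induces Socs3 through STAT3, was at 133.0, 197.7 and 205.7 CPM in LPS+resveratrol replicates 1, 2 and 3, against 91.4, 87.0 and 88.3 CPM in the LPS libraries. It rose by a log2 fold change of 1.01 ± 0.172 (SE; adjusted p = 0.038 by edgeR). Csf1, which encodes M-CSF, and Il12a, a subunit of interleukin 12, fell by 1.18 and 0.91 on the log2 scale. Il6, a gp130 ligand named here after its values were seen, had a log2 fold change of 0.27 over 6 libraries (adjusted p = 0.552 by edgeR) and 0.49 over 5 (adjusted p = 0.00232 by edgeR). Without LPS+resveratrol replicate 1, 2 of the 11 ligands rose and 6 fell (median −0.22, against −0.01 over all tested genes), where 25.4% of all tested genes were called in either direction.

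Of the cytokine receptors that couple to JAKs, 21 of 26 listed were tested, with 0 higher, 2 lower and 19 not called over 6 libraries (median log2 fold change 0.02). The 2 were Il13ra1, a subunit of interleukin 4 and 13 receptors, at 16.9, 15.3 and 13.4 CPM in LPS+resveratrol replicates 1, 2 and 3, against 29.6, 28.7 and 25.8 CPM in the LPS libraries (adjusted p = 0.0284 by edgeR), and Csf2rb2, the mouse interleukin 3 receptor beta subunit. Csf2rb2 was at 60.9, 56.6 and 58.2 CPM with LPS+resveratrol and 94.9, 94.2 and 97.0 CPM with LPS (adjusted p = 0.0252 by edgeR). Its near-identical neighbour Csf2rb, the common beta subunit of the GM-CSF receptor, can share its reads, so the split between them is uncertain. Csf2rb, chosen after its values were seen, had a log2 fold change of −0.23 over 6 libraries (adjusted p = 0.266 by edgeR) and −0.31 over 5 (adjusted p = 1.1e-05 by edgeR). The G-CSF receptor gene Csf3r, also chosen after its values were seen, averaged 1501 CPM with LPS+resveratrol and 1359 CPM with LPS, and did not pass over 6 or 5 libraries, with log2 fold changes of 0.14 and 0.04 (adjusted p = 0.498 and 0.606 by edgeR). Over 5 libraries 0 receptors were higher and 6 lower.

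The 11 JAK and STAT genes had 0 calls over 6 libraries with edgeR (median 0.11), and 1 was higher and 4 lower over 5. The most abundant, Jak1 and Stat3, had log2 fold changes of 0.24 and 0.29 over 6 libraries and −0.03 and 0.12 over 5, none of which passed. In LPS+resveratrol replicate 1 the median deviation of these 11 genes was 0.31. Among 21 genes that STATs are known to induce, 0 were called over 6 libraries (median −0.13), and 3 were higher and 8 lower over 5 (median −0.07). The most abundant of them, Il1rn, which encodes the interleukin 1 receptor antagonist, had a log2 fold change of 0.03 over 6 libraries and −0.17 over 5 (adjusted p = 0.929 and 0.0172 by edgeR). Mcl1, a survival factor of neutrophils, had 0.00 and −0.05 and did not pass.

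The machinery that the SOCS box recruits, made of elongins B and C, cullin 5, its RING partner and the NEDD8 system, had 0 calls among 7 genes over 6 libraries. In LPS+resveratrol replicate 1 the median deviation of these genes was −0.56. Ube2f, the NEDD8 conjugating enzyme gene for cullin 5, had a log2 fold change of 0.13 over 6 libraries (adjusted p = 0.478 by edgeR) and 0.15 over 5 (adjusted p = 0.0473 by edgeR), the single call there. Arih2, a ligase that works with cullin 5, had 0.06 and −0.04 and did not pass. Of 27 other listed genes for SOCS box proteins 14 were tested and 1 fell, Asb2, an ankyrin repeat member that targets filamins. Asb2 was at 1.53, 1.13 and 1.84 CPM in LPS+resveratrol replicates 1, 2 and 3, against 3.70, 4.85 and 3.61 CPM in the LPS libraries, a log2 fold change of −1.43 ± 0.247 (SE; adjusted p = 0.0404 by edgeR). Over 5 libraries 3 of the 14 were higher and Asb2 was the 1 that was lower.

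Other inhibitors of JAK and STAT signalling, such as phosphatases and PIAS proteins, had 0 calls among 13 genes over 6 libraries (median 0.07), and 3 were higher and 3 lower over 5. The most abundant, the phosphatase genes Ptprc and Ptpn1, had log2 fold changes of 0.42 and −0.06 over 6 libraries (adjusted p = 0.193 and 0.772 by edgeR) and 0.23 and 0.00 over 5 (adjusted p = 0.000135 and 0.978 by edgeR). The 7 lists share a few genes. Their counts over 6 libraries stand beside 1.83% of all tested genes called, and those over 5 libraries beside 25.4%.

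**Figure D4:**
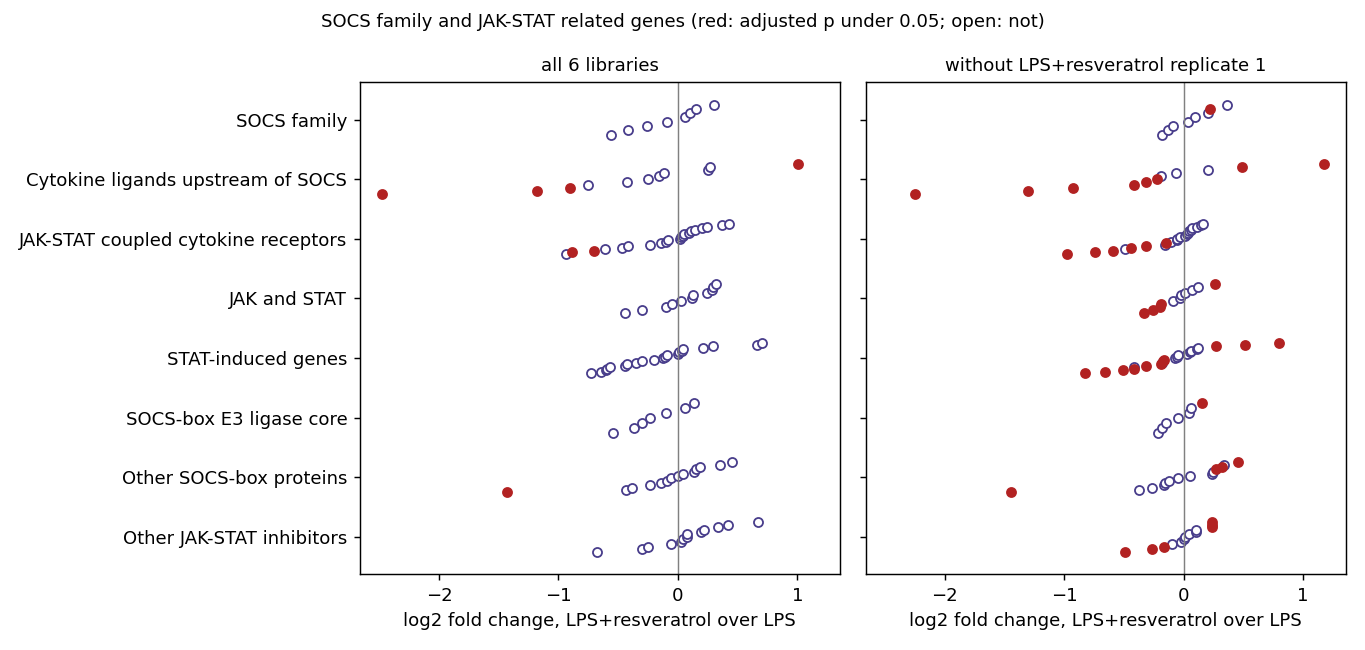
Log2 fold change of LPS+resveratrol over LPS (x axis) of the SOCS family and of 7 related gene lists (y axis), over 6 libraries (left) and without LPS+resveratrol replicate 1 (right), with 1 point for each tested gene and red where the adjusted p is under 0.05. The ligand list spreads widest, from −2.48 (Csf3) to 1.01 (Il10) over 6 libraries, while the SOCS family lies between −0.56 and 0.30.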

How the data were processed

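RNA was sequenced from 6 libraries, 3 LPS+resveratrol and 3 LPS. The deposited table holds whole-number counts per Ensembl gene ID, without normalization. The submitters' processing notes name Bowtie 0.12.2 and, as genome build, mm8. How reads were counted, on which annotation and whether by strand is not given in the sources used here. Of 25663 IDs, 25595 matched a symbol. The IDs match a later annotation than mm8, so gene coordinates are not printed; promoter windows carry RefSeq's own build.

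Genes were kept by filterByExpr (minimum count 10), leaving 13468 with at least 99.82% of each library's counts, scaled by TMM and tested with edgeR 4.0.16 (R 4.3.3; robust quasi-likelihood test, group alone, two-sided, Benjamini-Hochberg over all tested genes, threshold 0.05). CPM uses TMM-scaled totals. Standard errors come from the F statistic, and 95% intervals from them. Lengths and GC content are medians over protein-coding transcripts of GENCODE M21. Offsets were smooth functions of both, fitted per library with mgcv 1.9.3. Alternatives used DESeq2 1.42.0 and limma 3.58.1. No pair of libraries within a group agreed within counting noise (lowest chi-square per degree of freedom 3.28), and each counts as 1 replicate.

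The members, lists and tests were chosen with earlier results of these data known. Named outside the family are the called genes of each list, at most 4 by adjusted p, and in lists without a call the 2 genes with the highest mean CPM. Il6, Csf2rb and Csf3r are exceptions, chosen after their values were seen.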

Additional observations from a re-analysis of the deposited data

How the results depend on the processing

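Over 6 libraries 247 of all tested genes were called, and 392 without a filter, 845 with DESeq2, 524 with length and GC offsets, 2922 with limma-voom and library quality weights, and 0 with the replicate number as a block. Leaving out 1 library gave between 0 and 3420 calls: 3420 without LPS+resveratrol replicate 1, and 0 without any 1 of the other 5. Without LPS+resveratrol replicate 1, DESeq2 called 2559, limma-voom 3166 and edgeR with offsets 3382.

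Of the 8 members 0 were called in the 6-library comparison, and between 0 and 1 when 1 library was left out. The 1 was Socs4, without LPS+resveratrol replicate 1 (edgeR, DESeq2, limma-voom and edgeR with offsets) and with quality weights over 6 libraries. Those weights left LPS+resveratrol replicate 1 little influence (weight 0.0786). Signs turned in 10 of 143 values of single members under an alternative, none of them called. For Socs3 these were 0.023 with quality weights and, without LPS+resveratrol replicate 1, 0.039 with edgeR, DESeq2 (0.0448) and limma-voom (0.0395) and 0.0954 with offsets. When 1 library was left out, log2 fold changes were between −0.996 (without LPS+resveratrol replicate 3) and −0.13 (without replicate 1) for Socs1, −0.59 and −0.18 for Cish, −0.48 and 0.04 for Socs3, −0.31 and 0.36 for Socs2, −0.31 and 0.10 for Socs5, and −0.0094 and 0.17 for Socs6. Socs2 did not pass the filter of 50 counts.

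Deviations of same-numbered libraries from their group means were not correlated (0.0195, −0.0167 and 0.000425). LPS+resveratrol replicate 1 stood apart and enters its group mean, so these correlations cannot exclude a pairing. The numbers were taken as names, and the replicate block is given as an alternative. With the block, 0 members and 0 genes were called. The cause of these differences was not tested. Depth was lowest for Socs2, at 16 to 43 counts per library.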
